A study of Mus musculus with 6 samples.

Results

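Transcripts of 31 genes that make, take up, move, store or export cholesterol were followed in regulatory T cells sorted from mouse bone marrow, and all 31 were found among the 47643 genes of each table. The genes were listed by name and role: 18 synthesis enzymes, 4 sterol-sensing regulators, 3 genes of uptake and intracellular transport, 4 genes of efflux and of the LXR response, and 2 genes that hydroxylate or esterify the sterol. The cells carried CD4 and a GFP reporter of FOXP3, the transcription factor that defines regulatory T cells. The 3 myeloma libraries (replicates 3, 4 and 5) came from marrow of mice given Vk*MYC cells, which grow into a cancer of plasma cells like multiple myeloma, and the 3 control libraries (replicates 1, 3 and 5) from marrow of control mice. No source used here gives strain, age, cell dose, time of harvest or what the control mice received. These are bulk samples of sorted cells, so more transcript per cell and more cells of a kind that holds the transcript cannot be told apart.

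Cells build cholesterol from acetyl-CoA through mevalonate, isopentenyl diphosphate, farnesyl diphosphate, squalene and lanosterol. When sterol in the endoplasmic reticulum is low, SCAP carries the transcription factor SREBP2, the product of Srebf2, to the Golgi, where it is cut and released to switch on the synthesis genes, while INSIG proteins hold SCAP back when sterol is high. Oxysterols and other sterol intermediates activate the LXR receptors, which switch on the export pumps ABCA1 and ABCG1 and the ubiquitin ligase MYLIP, which lowers lipoprotein uptake. In T cells this balance is known to shift with activation and growth.

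Total expected counts per library were 10240620 to 13314631, and 30 of the 31 members passed the filter on low counts. The lowest count of a tested member in a library was 48.7. RSEM's count was not whole (beyond 0.005) in at least 1 library for 9 of the 31, which marks reads divided between genes. This was so in 6 libraries for Acat2, Fdft1, Tm7sf2 and Scap and in 5 for Npc1. It was so in 3 libraries for Idi1 and in 2 for Cyp51, Fdps and Insig1. The limit thus also touches Idi1, Cyp51 and Fdps, which are among the enzymes that rose. Summed regulatory T cell markers, all 8 of them detected in every library, reached 5271 to 5526 CPM (read counts relative to the scaled library total) in myeloma and 4670 to 6229 CPM in controls, with a median log2 fold change of -0.020. Markers of other cells were present in both groups. Plasma cell markers (2 of 9 tested were higher) summed to 338 to 611 CPM in myeloma against 211 to 276 CPM in controls, with Tnfrsf17 at 0 in at least 1 library. Most of the control sums came from Xbp1, Prdm1, Tnfrsf13b and Irf4, while Jchain averaged 118 CPM in myeloma and 2.66 CPM in controls. Red cell markers (5 of 8 tested were lower) summed to 3864 to 4796 CPM against 6744 to 14775 CPM, and B cell markers (4 of 9 were lower) to 28.4 to 71.1 CPM against 46.0 to 295.5 CPM. Macrophage and monocyte markers (4 of 13 tested were higher) summed to 83.5 to 585 CPM against 57.1 to 141 CPM, with Marco and Cd14 at 0 in at least 1 library. Neutrophil markers summed to 139.8 to 474 CPM against 65.1 to 189 CPM. Dendritic cell markers summed to 206 to 280 CPM against 52.1 to 55.6 CPM, most of it from Bst2, which interferon also induces, and Flt3, Siglech, Clec9a and Xcr1 were each at 0 in at least 1 library. All 10 type I interferon response genes were higher, with sums of 2429 to 3352 CPM against 637 to 746 CPM.

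Regulatory T cells from myeloma marrow held more transcript of 6 of the 18 cholesterol synthesis enzymes: Cyp51, Fdps, Idi1, Sqle, Nsdhl and Hmgcs1 rose and none fell. Calls are by the quasi-likelihood test of edgeR, with p-values adjusted by the Benjamini-Hochberg method over 13235 tested genes and called under 0.05. Across all genes tested 6.33% were called higher and 4.69% lower. DESeq2 called 7 enzymes higher and 0 lower, and limma-voom 5 higher and 0 lower. Over all 13235 genes DESeq2 called 1086 higher and 970 lower, and limma-voom 791 and 586. With 4.69% of all genes called lower by edgeR, 0 of 18 is near that share. In edgeR 0 enzymes were lower at an unadjusted p under 0.05. The share of all genes under that unadjusted p was not counted. Of the 12 other members tested, Npc2 rose and Mylip fell. The median log2 fold change was 0.48 for the synthesis enzymes and -0.0028 for the other 12, against 0.02 over all genes tested. All 3 myeloma CPM values lay above all 3 control values for 13 of the 18 enzymes, where 17.2% of all genes tested were separated in that direction. They lay below for 1 of the 18, Acat2, where 16.0% of all genes were.

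**Figure D1:**
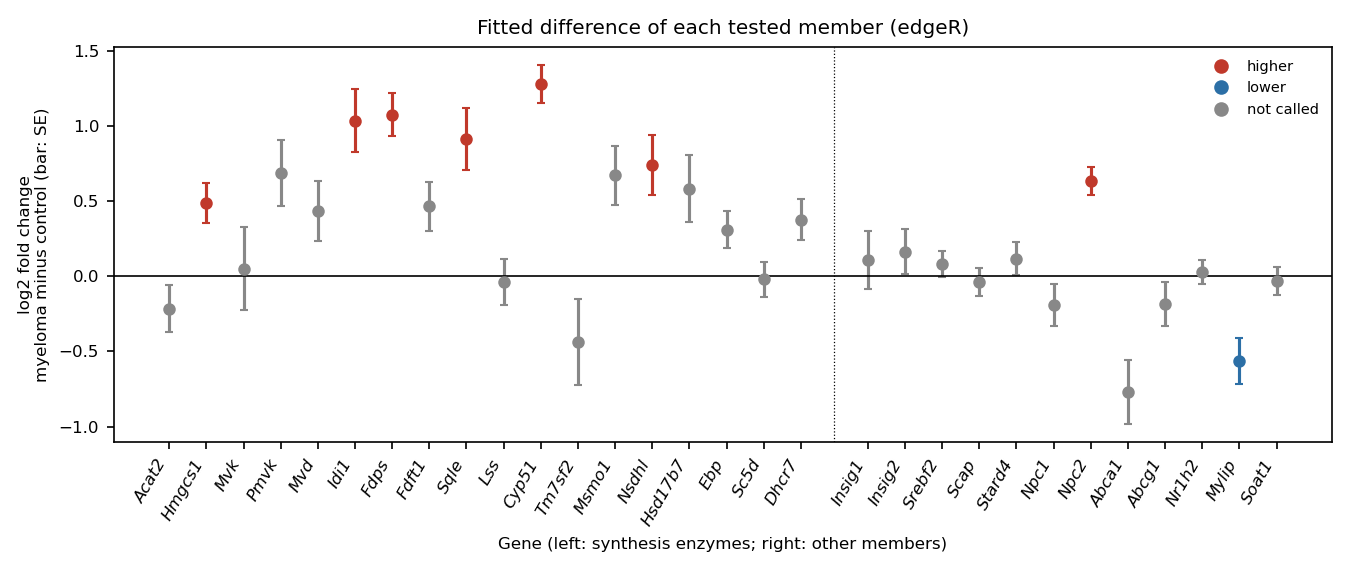
Fitted log2 fold change (myeloma minus control, vertical axis) of the 30 tested members, with the standard error as bars. The 18 synthesis enzymes stand in pathway order on the left and the 12 other members on the right. Called genes are in colour: Hmgcs1, Idi1, Fdps, Sqle, Cyp51, Nsdhl and Npc2 lie above 0 and Mylip below, and the grey genes were not called.

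The early steps turn acetyl-CoA into isopentenyl diphosphate, the building block of all isoprenoids. Among their 5 enzymes 1 rose. Hmgcs1, the HMG-CoA synthase of the cytosol (13:119690379-119708260 in GRCm38, plus strand), stood at 35.2, 34.0 and 39.5 CPM in myeloma and at 24.3, 23.2 and 30.1 CPM in controls, always listed in the order of replicates 3, 4, 5 for myeloma and 1, 3, 5 for controls. The groups did not overlap, and the highest control value came from replicate 5. The rise was 1.40-fold (log2 fold change 0.49, SE 0.13, adjusted p = 0.0462). Pmvk, the phosphomevalonate kinase, was at 14.4, 10.2 and 12.2 CPM in myeloma and 6.8, 8.4 and 7.7 CPM in controls. Its groups were separated as well, but it missed the threshold (log2 fold change 0.69, SE 0.22, adjusted p = 0.0782).

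Mvd, the decarboxylase that forms isopentenyl diphosphate, was at 13.8, 15.7 and 19.4 CPM in myeloma and 9.8, 12.5 and 13.8 CPM in controls (fitted log2 difference 0.43 with SE 0.20, adjusted p = 0.198). Its lowest myeloma and highest control library nearly met. Mvk, the mevalonate kinase, averaged 7.05 ± 1.78 CPM in myeloma and 6.83 ± 0.307 CPM in controls (SD, n = 3 each), and the groups overlapped. Acat2, the cytosolic thiolase that feeds the pathway, ran the other way, at 15.5, 14.6 and 13.5 CPM against 15.5, 16.3 and 18.7 CPM. Its fitted difference was small (log2 fold change -0.22, SE 0.15, adjusted p = 0.404). Its counts were not whole in any of the 6 libraries, so its level is uncertain.

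The stretch from isopentenyl diphosphate to squalene epoxide showed the highest median of the 3 stretches. Of its 4 enzymes 3 rose, all 4 were separated between the groups, and the median log2 fold change was 0.97, against 0.43 for the 5 enzymes before it and 0.37 for the 9 after it. The summed level of the 4 was 108, 100.01 and 85.9 CPM in the myeloma libraries, in the same order, and 57.6, 58.03 and 49.2 CPM in the controls. Whether the stretches differ from one another was not tested.

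Fdps makes farnesyl diphosphate, the branch point from which sterols, prenyl anchors and ubiquinone all derive (3:89093588-89101959, minus strand). Its levels were 29.97, 25.3 and 25.1 CPM in myeloma and 11.5, 12.99 and 13.6 CPM in controls. Every myeloma library was thus far above every control, a 2.11-fold rise (log2 fold change 1.08, SE 0.14, adjusted p = 0.003345). Idi1, the isomerase just before it (13:8885501-8892451, plus strand), was at 30.9, 24.4 and 23.3 CPM against 13.6, 15.7 and 9.2 CPM. Its rise was 2.05-fold (fitted log2 difference 1.03 with SE 0.21, adjusted p = 0.0180), with the highest value in myeloma replicate 3 and the lowest in control replicate 5.

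Sqle, the epoxidase that commits squalene to sterols and a known slow step of the pathway (15:59315077-59331192, plus strand), was at 18.3, 16.8 and 15.3 CPM in myeloma and 11.1, 8.3 and 7.3 CPM in controls. The groups were separate and the rise was 1.88-fold (log2 fold change 0.91, SE 0.20, adjusted p = 0.0251). Fdft1, the squalene synthase, was at 29.1, 33.6 and 22.2 CPM against 21.5, 20.99 and 19.0 CPM. It was not called (log2 fold change 0.46, SE 0.16, adjusted p = 0.100), and myeloma replicate 5 lay close to the controls. Without that library it passed (log2 fold change 0.60, adjusted p = 0.0264). That was the only 1 of the 6 fits without a library in which it did. Over these fits its log2 fold change went down to 0.32 and its adjusted p up to 0.290. Fdft1 shares 774 exonic bases with Ctsb on the opposite strand, which averaged 3653 counts per library against 285 for Fdft1, and the library kit does not mark strand, so its counts may hold reads of that neighbour.

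Past squalene epoxide, 9 enzymes close the rings and trim lanosterol to cholesterol, and 2 of them rose. Cyp51, the lanosterol demethylase (5:4081145-4104746, minus strand), had the highest fold change of all 31 genes. Its levels were 43.3, 38.1 and 36.0 CPM in myeloma and 15.3, 17.7 and 15.5 CPM in controls. The lowest myeloma library was thus at a level no control came near, and the rise was 2.43-fold (log2 fold change 1.28, SE 0.13, adjusted p = 0.000554). Cyp51 shares 166 exonic bases with Akap9 on the other strand, which averaged 1514 counts per library against 319 for Cyp51. As the kit does not mark strand, its counts may hold reads of that neighbour. Nsdhl, a sterol dehydrogenase of the demethylation complex (X:72918557-72958514, plus strand), was at 19.6, 20.1 and 23.6 CPM against 13.1, 15.5 and 9.4 CPM. Its rise was 1.67-fold (fitted log2 difference 0.74 with SE 0.20, adjusted p = 0.0476), just inside the threshold.

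Msmo1, the methyl oxidase that works beside Nsdhl, was at 26.2, 18.4 and 20.003 CPM in myeloma and 16.2, 13.2 and 11.2 CPM in controls, just outside the threshold (log2 fold change 0.67, SE 0.20, adjusted p = 0.0610). Hsd17b7, the ketoreductase of the same complex, was at 11.6, 8.7 and 10.9 CPM against 7.0, 7.4 and 6.5 CPM (log2 fold change 0.58, SE 0.22, adjusted p = 0.129). Both were separated between the groups without passing the test. Ebp, the sterol isomerase, was at 41.5, 46.8 and 56.2 CPM against 40.0, 36.9 and 39.8 CPM (log2 fold change 0.31, SE 0.12, adjusted p = 0.14). Dhcr7, which performs a last reduction to cholesterol, was at 34.6, 26.4 and 34.2 CPM against 23.6, 26.3 and 23.6 CPM (log2 fold change 0.37, SE 0.14, adjusted p = 0.108). Myeloma replicate 4 and control replicate 3 were almost level for Dhcr7. Per length neither mean was higher in myeloma: Ebp averaged 50.5 TPM against 56.2 TPM in controls, and Dhcr7 19.55 against 19.69 TPM. Over the alternatives that kept all libraries, the lowest log2 fold change was 0.085 for Ebp and 0.22 for Dhcr7.

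The remaining 3 enzymes of this stretch overlapped between groups. Lss, the cyclase that makes lanosterol, averaged 14.8 ± 1.21 CPM in myeloma and 15.2 ± 1.06 CPM in controls (SD, n = 3 each; log2 fold change -0.04, SE 0.15). Sc5d, the sterol desaturase, averaged 47.6 ± 1.89 and 48.2 ± 6.77 CPM (log2 fold change -0.02, SE 0.12). Neither difference was larger than its standard error. Tm7sf2, a sterol reductase, averaged 7.30 ± 2.37 and 9.91 ± 1.36 CPM (log2 fold change -0.44, SE 0.29, adjusted p = 0.360). Tm7sf2 shares 532 exonic bases with Vps51 on the same strand and its counts were not whole in any library, so they are uncertain. Over the enzymes that were separated upward but not called, 7 in all, log2 fold changes ran from 0.31 to 0.69 and adjusted p from 0.0610 to 0.198.

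**Figure D2:**
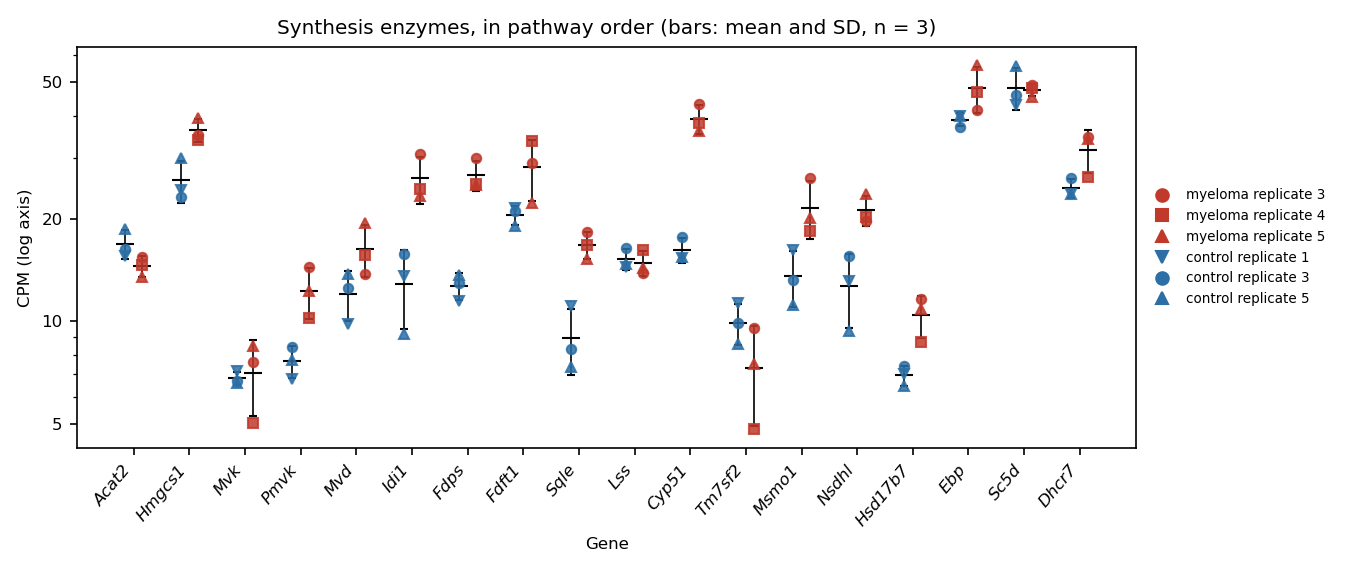
Level of the 18 synthesis enzymes in each library (CPM, log axis), in pathway order, with the mean and SD of each group (n = 3) as black bars, controls in blue and myeloma in red. For Cyp51 and Fdps the groups are widest apart, while Mvk, Lss, Tm7sf2 and Sc5d overlap.

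Promoter sequence was examined for the members because several of them moved together. RefSeq windows (GRCm38.p6, 250 bases before to 50 after the start site) were at hand for 25 of the 31 genes, in 31 windows. The core of the sterol regulatory element, the letters TCACNCCAC on either strand, occurred in 1 of the 31 windows, that of Hmgcs1, and in 1.24% of all 32851 windows. The NF-Y box, CCAAT on either strand, occurred in 14 of 18 windows of synthesis enzymes (77.8%), in 6 of 13 of the other members (46.2%) and in 37.4% of all windows. Windows of Hmgcs1, Cyp51, Nsdhl and Idi1, which rose, held it, and so did those of Mvk, Lss, Sc5d and Tm7sf2, whose groups overlapped. Fdps and Sqle, which also rose, were among the genes with no window. A match describes letters and shows no binding, and a window with no match says only that these letters are not in it. The stretches before the start sites of 3 enzymes that rose and of Mylip, which fell, are printed 5′ to 3′ on the gene's own strand, leaving out annotated exons, with NF-Y boxes and the sterol element core in capitals. They lie at chr13:119690101-119690350 for Hmgcs1, chr5:4104747-4104947 for Cyp51, chrX:72918412-72918520 for Nsdhl and chr13:45389492-45389741 for Mylip.
Hmgcs1: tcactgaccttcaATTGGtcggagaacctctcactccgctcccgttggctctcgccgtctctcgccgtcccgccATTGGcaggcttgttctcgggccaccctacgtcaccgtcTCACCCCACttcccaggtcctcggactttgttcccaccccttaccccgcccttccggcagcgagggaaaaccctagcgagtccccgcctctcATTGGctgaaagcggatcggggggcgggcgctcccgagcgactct
Cyp51: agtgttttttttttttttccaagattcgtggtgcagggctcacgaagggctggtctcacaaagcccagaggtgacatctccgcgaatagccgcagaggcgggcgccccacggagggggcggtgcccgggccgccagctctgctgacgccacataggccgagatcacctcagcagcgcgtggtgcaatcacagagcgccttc
Nsdhl: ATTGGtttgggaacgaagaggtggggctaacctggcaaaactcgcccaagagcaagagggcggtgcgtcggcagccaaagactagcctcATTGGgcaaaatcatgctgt
Mylip: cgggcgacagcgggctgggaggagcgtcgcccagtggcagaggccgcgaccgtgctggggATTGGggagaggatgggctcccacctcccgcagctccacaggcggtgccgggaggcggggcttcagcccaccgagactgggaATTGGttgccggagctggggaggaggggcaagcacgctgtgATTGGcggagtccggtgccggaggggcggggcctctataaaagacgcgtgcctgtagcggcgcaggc
The capitals show that Hmgcs1 holds the core TCACCCCAC, its first base 137 bases before the start site, between NF-Y boxes, while Mylip holds 3 NF-Y boxes and no core. The Cyp51 stretch stops upstream of that window's only NF-Y box, which lies 29 bases before the start site and is not printed.

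None of the 4 sterol-sensing regulators was called by edgeR, DESeq2 or limma-voom. Over all genes tested edgeR called 6.33% higher and 4.69% lower, so 0 of 4 is near that share. None of the 4 had an unadjusted p under 0.05, a threshold at which the share of all genes was not counted. Srebf2, which encodes the transcription factor of the synthesis genes and had the highest mean TPM of the 4, was at 238, 231 and 231 CPM in myeloma and 201, 239 and 223 CPM in controls. Control replicate 3 was level with the highest myeloma library, and the fitted log2 fold change was 0.08 (SE 0.09, adjusted p = 0.5998). Scap, its escort, averaged 101.8 ± 8.91 CPM in myeloma and 104.5 ± 5.27 CPM in controls (SD, n = 3 each; log2 fold change -0.04, SE 0.09). Insig1, a retention protein that is itself a known SREBP target, averaged 45.3 ± 6.02 and 42.1 ± 12.5 CPM (log2 fold change 0.11, SE 0.20). Control replicate 3 held the highest Insig1 level of all 6 libraries, 56.2 CPM, and the other controls held 37.7 and 32.4 CPM. Insig2 averaged 24.7 ± 1.61 and 22.0 ± 3.66 CPM (log2 fold change 0.16, SE 0.15). These are transcript levels, and cleavage of the SREBP2 protein was not measured.

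Of the 3 genes that carry sterol inside the cell, Npc2 rose. NPC2 is the soluble lysosomal protein that picks cholesterol out of digested lipoproteins and hands it to the membrane protein NPC1. Npc2 (12:84754562-84773152, minus strand) was at 282, 304 and 316 CPM in myeloma and 208, 199 and 174 CPM in controls. The groups were well apart, a 1.55-fold rise (log2 fold change 0.63, SE 0.09, adjusted p = 0.00539). Its partner Npc1 averaged 52.0 ± 4.65 CPM in myeloma and 59.4 ± 11.4 CPM in controls (SD, n = 3 each; log2 fold change -0.19, SE 0.14, adjusted p = 0.412), so the pair did not rise together. Control replicate 5 was the high library for Npc1, at 72.5 CPM. Npc1 shares 511 exonic bases with Rmc1 on the opposite strand, which averaged 1122 counts per library against 669 for Npc1, so its counts may hold reads of Rmc1. Stard4, a soluble sterol carrier of the cytosol, averaged 36.2 ± 3.14 and 33.4 ± 2.18 CPM (log2 fold change 0.12, SE 0.11) and overlapped. Macrophages also hold Npc2, and their summed markers were 83.5, 180 and 585 CPM in myeloma and 141, 57.1 and 101 CPM in controls. The part of macrophages in the Npc2 difference was not tested.

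Among the 4 genes of efflux and the LXR response Mylip fell, none rose, and the median log2 fold change was -0.37. Mylip, the ligase that marks lipoprotein receptors for degradation (13:45389742-45412022, plus strand), was at 39.2, 56.0 and 51.8 CPM in myeloma and 60.7, 74.0 and 81.9 CPM in controls. All control libraries were above all myeloma libraries, and Mylip fell to 0.68 of the control level (log2 fold change -0.56, SE 0.15, adjusted p = 0.0479). Abca1, the pump that loads cholesterol onto apolipoproteins (4:53030787-53159895, minus strand), was at 28.9, 33.3 and 31.2 CPM against 35.9, 52.2 and 71.1 CPM. Myeloma values were tightly grouped and all below the controls, which spread widely, and Abca1 missed the threshold narrowly (log2 fold change -0.77, SE 0.21, adjusted p = 0.0505). Without control replicate 1, the control nearest to myeloma, Abca1 was lower with a log2 fold change of -0.999 (adjusted p = 0.00817). That was the only 1 of the 6 fits without a library that called it. Over these fits its log2 fold change reached -0.51 and its adjusted p 0.133. DESeq2 called it on all 6 libraries (adjusted p = 0.00441).

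Abcg1, the pump that unloads cholesterol to mature lipoproteins, was at 88.0, 80.7 and 122.6 CPM in myeloma and 103.6, 110.8 and 116.7 CPM in controls. Myeloma replicate 5 was the highest of the 6 libraries and the other 2 myeloma libraries the lowest, so the groups overlapped (log2 fold change -0.18, SE 0.15, adjusted p = 0.456). Without myeloma replicate 5 Abcg1 was lower (log2 fold change -0.39, adjusted p = 0.0360). That was the only 1 of the 6 fits without a library that called it. Over these fits its log2 fold change reached -0.07 and its adjusted p 0.820. Nr1h2, which encodes the widely expressed receptor LXR-beta and had the highest mean TPM of all members, was at 135, 119 and 124 CPM against 122, 126 and 123 CPM, with a log2 fold change of 0.03 (SE 0.08). The B cell marker sums beside these values were 28.4, 42.1 and 71.1 CPM in myeloma and 46.0, 233 and 295.5 CPM in controls. Control replicate 1, low in B cell markers, was also the lowest control for Abca1, Mylip, Abcg1 and Nr1h2, whose groups were level. It was also the lowest control in red cell marker sums (6744 CPM against 14775 and 10397 CPM). In macrophage (141 CPM) and neutrophil (189 CPM) sums it was the highest control. The part of B cells or other cells in these differences was not tested.

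Soat1, which esterifies cholesterol for storage, was at 88.3, 75.7 and 86.6 CPM in myeloma and 87.9, 78.6 and 89.8 CPM in controls, and its groups overlapped (log2 fold change -0.03, SE 0.09, adjusted p = 0.864). Ch25h makes the oxysterol 25-hydroxycholesterol and is known as an interferon-induced gene of macrophages. It had 0 counts in each myeloma library and 2 in each control library, too few to test. With 0 counts up to 3 remain possible, which is 0.254, 0.298 and 0.268 CPM in the myeloma libraries and covers counting error only. No difference was detectable at this depth, in libraries whose summed type I interferon genes differed several-fold.

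**Figure D3:**
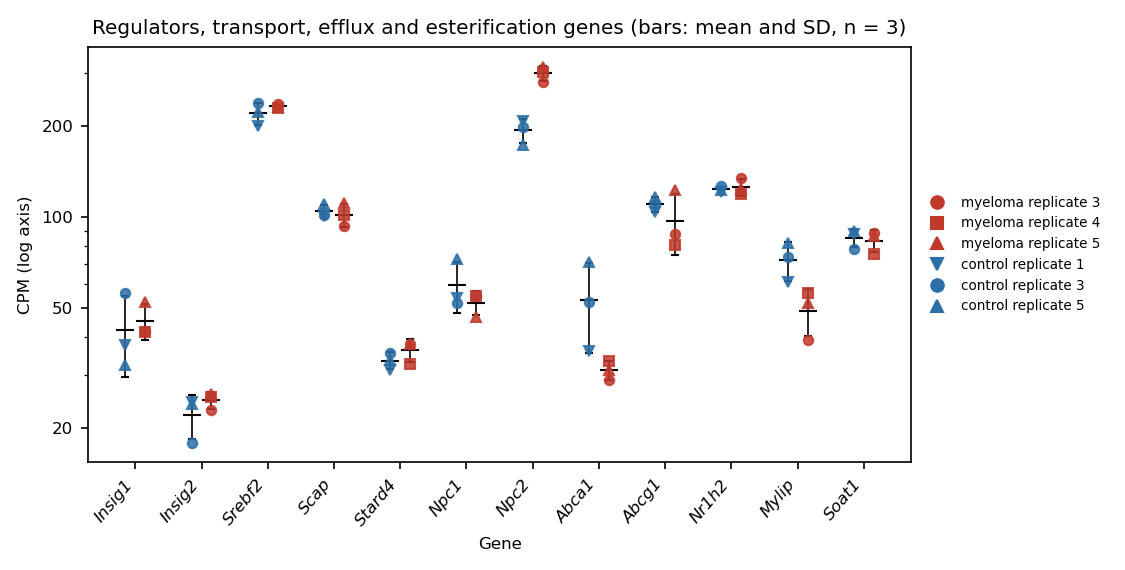
Level of the 12 tested regulator, transport, efflux and esterification genes in each library (CPM, log axis), with the mean and SD of each group (n = 3) as black bars. The groups are separate for Npc2 (myeloma higher) and for Abca1 and Mylip (myeloma lower), and overlap for the other 9.

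The contrast between synthesis and the other roles was also visible inside each library, where no scaling between libraries enters. The mean log2 CPM of the 18 enzymes minus that of the 12 other tested members was -1.71, -1.93 and -1.91 in myeloma and -2.27, -2.33 and -2.49 in controls. All myeloma libraries thus stood above all controls. On the authors' TPM, which are per length, the same difference was -0.97, -1.17 and -1.14 against -1.48, -1.59 and -1.85. The summed level of the enzymes was 444, 407 and 427 CPM in myeloma and 305, 315 and 311 CPM in controls. That of the other members was 1149, 1155 and 1236 CPM against 1067, 1144 and 1152 CPM, so those overlapped. In TPM, which carry no correction for composition, the enzymes summed to 328, 289.8 and 288 against 271, 262 and 284, so the gap was narrower there. The other members summed to 551, 521 and 518 TPM in myeloma and 581, 559 and 642 TPM in controls, lower in all myeloma libraries.

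**Figure D4:**
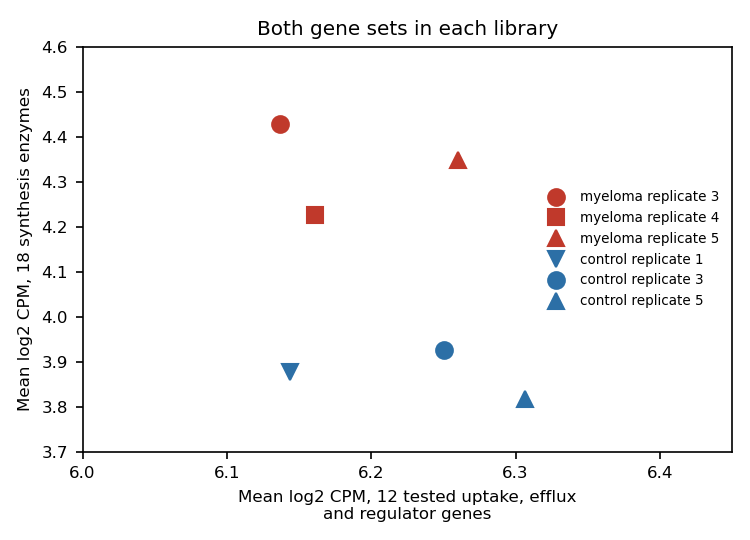
Mean log2 CPM of the 18 synthesis enzymes (vertical axis) against that of the 12 other tested members (horizontal axis), 1 point per library. The axes do not start at 0. Myeloma libraries lie between 4.23 and 4.43 on the vertical axis and controls between 3.82 and 3.93, while the groups overlap on the horizontal axis.

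Other groups of genes were set beside the enzymes in each library. Plasma cell marker sums were 338, 452 and 611 CPM in myeloma and 276, 264 and 211 CPM in controls, higher in all myeloma libraries. Most of the control sums came from Xbp1, Prdm1, Tnfrsf13b and Irf4, which averaged 63.8, 69.0, 53.6 and 48.3 CPM in controls. In myeloma they averaged 83.5, 115, 49.5 and 53.9 CPM. Jchain, of the same list, was at 37.7, 118 and 199 CPM in myeloma and 3.7, 0.6 and 3.7 CPM in controls. The 15 proliferation genes, Mki67 and cyclin and replication genes among them, summed to 505, 560 and 906 CPM in myeloma and 589, 691 and 688 CPM in controls. Their groups overlapped, with a median log2 fold change of 0.060. Red cell marker sums were lower in all myeloma libraries than in all controls, and the part of plasma cells or red cells in the enzyme difference was not tested. The same holds for the interferon response, whose sums also did not overlap between the groups.

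Per length, the most abundant member was Nr1h2, at 119.5 ± 19.9 TPM in myeloma and 150.01 ± 15.9 TPM in controls (SD, n = 3 each), followed by Npc2 at 126 ± 2.57 and 97.0 ± 8.68 TPM. Srebf2 came next, at 62.8 ± 4.45 and 70.5 ± 4.34 TPM, and then Ebp at 50.5 ± 1.63 and 56.2 ± 8.48 TPM. Among neighbours in this order, Nr1h2 and Npc2 overlapped within 1 SD in myeloma, and Srebf2 and Ebp did so in neither group. Mean TPM over the 6 libraries ran from 3.79 for Hsd17b7 to 53.4 for Ebp among the enzymes. Cyp51 and Idi1, with some of the highest fold changes, were of modest abundance, at a mean of 11.7 and 9.70 TPM, and Fdps was at 25.5 TPM.

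Genes beside the listed ones were examined in 5 groups of related function. Over all genes tested, edgeR called 6.33% higher and 4.69% lower. Among genes of sterol and SREBP processing, those that rose included Rnf139, a ubiquitin ligase of the endoplasmic reticulum (log2 fold change 0.35, SE 0.08, adjusted p = 0.0325), and Hsd17b12, an enzyme of fatty acid elongation (0.47, SE 0.12, adjusted p = 0.0416). Of 14 genes of the isoprenoid branch, which use farnesyl and geranylgeranyl diphosphate, edgeR, DESeq2 and limma-voom called none. In edgeR 2 had an unadjusted p under 0.05, a threshold at which the share of all genes was not counted.

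Among 12 tested SREBP targets of fatty acid synthesis none rose and Scd1, the stearoyl-CoA desaturase, fell. Scd1 was at 1.4, 1.0 and 2.2 CPM in myeloma and 4.8, 26.3 and 39.3 CPM in controls (fitted log2 difference -3.95 with SE 0.71, adjusted p = 0.0109), and control replicate 1 was again the control nearest to myeloma. The Scd1 call was made by DESeq2 too but not by limma-voom, which called 0 of the 12 lower, and the counts of Scd1 were not whole in any library. Fasn, the fatty acid synthase, was at 138.5, 145.6 and 135.3 CPM against 144.4, 146.5 and 178.3 CPM and was not called. Of 18 genes of sterol transport and lipoprotein handling, Osbp, an oxysterol-binding exchanger of lipids, fell (log2 fold change -0.39, SE 0.09, adjusted p = 0.0287). Of 16 genes of the LXR pathway and oxysterols, Tspo, a cholesterol-binding protein of the outer mitochondrial membrane, rose (0.48, SE 0.08, adjusted p = 0.00773) and Ncor1, a corepressor of nuclear receptors, fell (-0.38, SE 0.09, adjusted p = 0.0252).

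Leaving out 1 library at a time kept the direction of all 8 called members and of Abca1, but not all of the calls. Cyp51, Fdps and Npc2 passed in all 6 such fits, with adjusted p up to 0.00529, 0.0219 and 0.0307. Idi1 was no longer called when myeloma replicate 3 (adjusted p = 0.0686) or 4 (0.0571) was absent. Sqle was no longer called in 4 fits, those lacking replicate 3 (0.0802) or 4 (0.0770) of myeloma or replicate 3 (0.0991) or 5 (0.0843) of the controls. Nsdhl was called in none of the 6 (0.0603 to 0.119), and Hmgcs1 and Mylip in 1 each: Hmgcs1 without control replicate 5 (0.0396; otherwise 0.0940 to 0.169) and Mylip without control replicate 1 (0.0323; otherwise 0.0583 to 0.148). The count of enzymes called was 2 without myeloma replicate 3 or 4 and 3 without control replicate 3, and these fits have fewer samples. Over all genes tested 452, 394 and 331 were called higher in these fits, in the same order, against 838 with all 6 libraries. The median log2 fold change of the enzymes stayed between 0.46 and 0.53 in the same 6 fits.

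**Figure D5:**
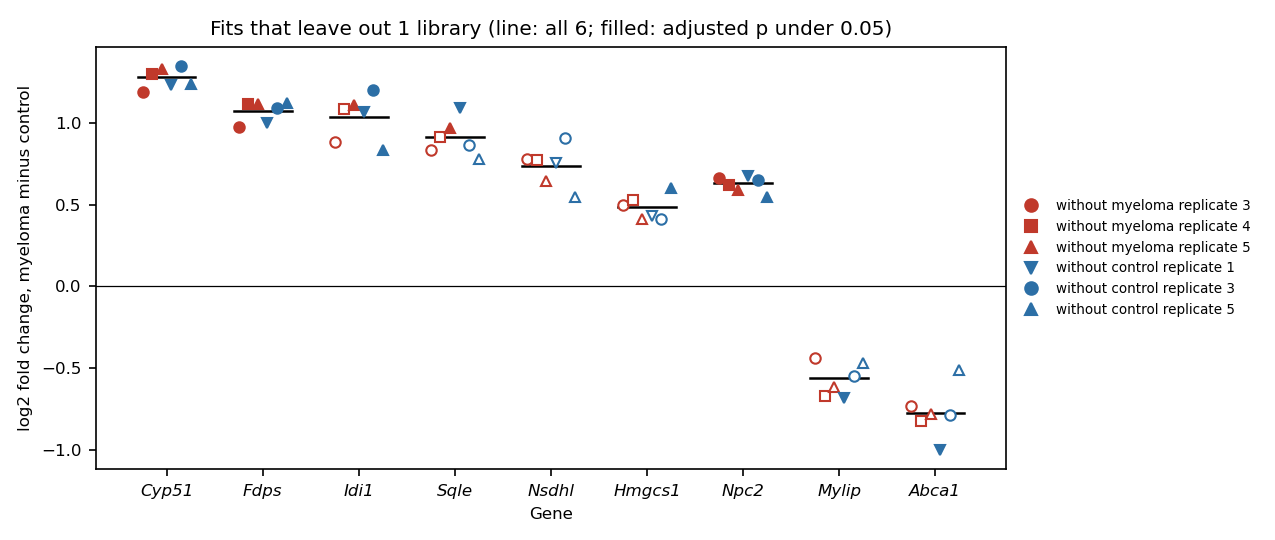
Log2 fold change (myeloma minus control) of the 8 called members and Abca1 with all 6 libraries (line) and in the fits that leave out 1 library each (symbols, filled where the adjusted p was under 0.05). Every symbol of Cyp51, Fdps and Npc2 is filled, none of Nsdhl is, and no symbol lies across 0 from its line.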

How the data were processed

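RNA was sequenced from flow-sorted regulatory T cells of 3 myeloma and 3 control marrow samples, with a kit that does not mark strand. Per the submitters' processing notes, STAR, RSEM, Picard and DESeq2 were used with mouse build mm10, with versions not given in any source used here. The expected counts the authors deposited are estimates per gene by RSEM, not normalized, and the deposited TPM and FPKM are scaled for effective length and library total, per the file headers. Effective lengths of the deposited tables served in 1 alternative, and FPKM entered no result. Names came from gene IDs, of which 47224 of 47643 matched the reference, and positions from GENCODE M21 on GRCm38.

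Rounded expected counts were filtered with filterByExpr (count of at least 10, total of at least 15). They were scaled with TMM factors and tested in edgeR 4.0.16 (glmQLFit, glmQLFTest) in R 4.3.3, threshold 0.05 over 13235 genes. The SE is the absolute log2 fold change divided by the square root of F. CPM use TMM-scaled library sizes. The test was checked on simulated data. Alternatives used DESeq2 1.42.0, limma-voom (limma 3.58.1) and those in the closing section. Replicates are separate samples, but nothing says how they relate beyond that, so the p-values reflect only the spread among these libraries, which may be technical. The members, lists, motifs and tests were chosen with earlier results of these data known. Genes called, separated between groups or most abundant in their role are given per library. Up to 4 called genes per related list are named, except where a result is not reported here.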

Additional observations from a re-analysis of the deposited data

How the results depend on the processing

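Over the alternatives run, 2 to 7 synthesis enzymes were called higher and none lower, Npc2 was called in each, and the median of the enzymes lay between 0.40 and 0.53. The count of all genes called higher varied as well, from 331 without control replicate 3 to 1337 with no filter. The fits without 1 library gave 2 to 5 enzymes higher and 0 to 2 other members lower. Over all genes they called 331 to 836 higher and 123 to 546 lower, against 838 and 621 with all 6 libraries. With the replicate number as a block (replicate block), 3 enzymes were higher and 2 other members, Mylip and Abca1, lower. Over all genes that fit called 362 higher and 142 lower. Only numbers 3 and 5 occur in both groups, and the deviations of same-numbered libraries from their group means correlated at 0.03 and 0.10. For differently numbered libraries the correlations ran from -0.081 to 0.048, so the value of number 5 was the highest. So few pairs cannot settle whether libraries were paired, and no pairing was assumed. RLE factors, library sizes alone, upper-quartile factors, no filter, the filter of 1 CPM in 3 libraries and DESeq2 each gave 2 other members lower, since Abca1 then passed, as it did after removal of immunoglobulin, haemoglobin and mitochondrial genes, a setting chosen after seeing the data. The effective-length offset gave 0 lower, since Mylip lost its call (adjusted p = 0.0659), and moved the median of the other members from -0.0028 to -0.087.

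Of the recomputed values of single members, 445 kept direction and call, 32 lost and 14 gained a call, and 19 changed sign, all 19 in members that were not called. Under the effective-length offset the log2 fold change became 0.46 for Lss, -0.10 for Insig1, 0.10 for Scap, -0.081 for Stard4, -0.093 for Nr1h2 and 0.20 for Soat1. With library sizes alone it became -0.028 for Mvk and -0.046 for Nr1h2, and with the replicate block 0.057 for Soat1. Without 1 library the ranges that crossed 0 were -0.11 to 0.24 for Mvk, -0.10 to 0.019 for Lss, -0.11 to 0.088 for Sc5d, -0.061 to 0.37 for Insig1, -0.11 to 0.010 for Scap, -0.037 to 0.063 for Nr1h2 and -0.091 to 0.032 for Soat1. The cause was not tested. Hmgcs1 and Nsdhl also lost their calls with library sizes alone (adjusted p = 0.0782 and 0.0535) and the effective-length offset (0.0900 and 0.0765), Nsdhl with upper-quartile factors (0.0531) and Hmgcs1 with limma-voom (0.0504). The enzymes no longer called with the replicate block were Hmgcs1 (0.137), Sqle (0.0723) and Nsdhl (0.175).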

Other observations

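RSEM's effective length, the average over a gene's transcripts weighted by their estimated abundance, varied between libraries for some members. For Lss it was 3149, 2026 and 1826 bases in myeloma replicates 3, 4 and 5 and 2795, 2687 and 4474 bases in control replicates 1, 3 and 5, although the CPM of Lss were nearly level. For Cyp51 it was 3735, 3728 and 2485 bases in myeloma and 3013, 2805 and 3684 bases in controls, with no separation of the groups. For Insig1 it was 2270, 2329 and 2332 bases in myeloma and 2026, 2010 and 2005 bases in controls, and here the groups did not overlap, although the gene's CPM did. Transcript-level estimates were not analysed here.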
